A study of Mus musculus with 2 samples.

Results

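The genes described here are 5 microRNA hairpin genes that lie inside, or opposite a hairpin that lies inside, genes of metabolism: Mir103-1, Mir103-2 and Mir107 in the pantothenate kinase genes Pank3, Pank2 and Pank1, Mir33 in Srebf2, and Gm25301 in Ppargc1b. They were taken by symbol from the 1973 microRNA genes of the deposited tables, and all 5 were found. The series holds 1 group, midbrain of B6NCrl mice on postnatal day 0, with a library from a single midbrain of pup 3 and another from that of pup 1 (biological replicates 2 and 1 in the labels). There is no treatment, mutant or second tissue, and sex was not collected. Small RNA from total RNA was sequenced, in a size range of under 30 bases, and each value is a count of reads on a hairpin gene. In bulk tissue, a lower level can come from fewer cells of a type or from less RNA per cell, which cannot be told apart.

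A microRNA is cut from a hairpin precursor, whose 5′ arm (5p) and 3′ arm (3p) can each give a mature strand. The mature strand pairs with messenger RNAs mainly through its seed, bases 2 to 8, and represses them. The Pank genes encode the kinases that start coenzyme A synthesis, and their resident microRNAs miR-103 and miR-107 lower insulin sensitivity in mouse liver and fat. Srebf2 encodes the transcription factor that switches on cholesterol synthesis, and its resident miR-33 represses the cholesterol exporter Abca1. Ppargc1b encodes a coactivator of mitochondrial genes, and its resident miR-378a is known for effects on fatty acid metabolism.

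The mature sequences are shown first, because they decide which reads can be assigned to a hairpin. The seed is in capitals, read 5′ to 3′, and the sequences are those of RefSeq on GRCm38.p6, where 4 of the 5 members were matched by symbol.
miR-103-3p: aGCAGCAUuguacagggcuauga
miR-107-3p: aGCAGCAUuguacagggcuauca
miR-103-1-5p: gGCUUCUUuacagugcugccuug
miR-103-2-5p: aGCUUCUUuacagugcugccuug
miR-107-5p: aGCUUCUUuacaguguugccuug
miR-33-5p: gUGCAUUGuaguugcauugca
miR-33-3p: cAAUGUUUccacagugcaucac

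The 3p strands of miR-103 and miR-107 share a seed that no other mature sequence of the table has. They differ in 1 of 23 bases, G22C, counted from the 5′ end with miR-103-3p first. The 5p strands of the 3 hairpins also share a seed with each other only. Between miR-103-1-5p and miR-103-2-5p the difference is G1A, and between miR-103-2-5p and miR-107-5p it is C16U. The seed of each miR-33 strand occurs in no other of the 1679 mature sequences of the table.

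The hairpins show how far the likeness reaches beyond the mature strands, which are in capitals here.
Mir103-1: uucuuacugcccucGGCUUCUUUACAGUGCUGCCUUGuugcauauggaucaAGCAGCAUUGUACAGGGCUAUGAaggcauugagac
Mir103-2: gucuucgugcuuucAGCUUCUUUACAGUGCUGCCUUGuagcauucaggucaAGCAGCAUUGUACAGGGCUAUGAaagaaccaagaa
Mir107: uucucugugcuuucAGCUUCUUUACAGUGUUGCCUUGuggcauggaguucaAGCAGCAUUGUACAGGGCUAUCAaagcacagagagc
Mir33: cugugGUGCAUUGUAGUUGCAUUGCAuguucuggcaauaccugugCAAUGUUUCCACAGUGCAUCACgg

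Mir103-1 and Mir103-2 were identical over 80.2% of their alignment, Mir103-1 and Mir107 over 80.9%, and Mir103-2 and Mir107 over 83.9%. The longest run shared by Mir103-1 and Mir103-2 had 27 bases. It held the whole of miR-103-3p with 3 bases before and 1 base after it, so an exact read of the 3p strand from either gene matches both unless it reaches past that run. Each shared 24 bases with Mir107, ending 2 bases short of the 3′ end of the 3p strand, so a read that stops before base 22 matches all 3 genes. These tables assign no multi-mapping read to a gene, and such reads made up 39.8% of the library of pup 3 and 38.7% of that of pup 1. Whether reads with mismatches were kept is not given in the sources used here. A read with mismatches could be placed on any of the 3 hairpins, whose 3p strands are at most 1 base apart.

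Each hairpin was cut into windows of 22 bases, about the length of a mature strand, and each window was looked for, on either strand, in the other hairpins among the 1005 of the table. For Mir103-1, 57 of 65 windows were in no other hairpin, for Mir103-2 55 of 65, and for Mir107 61 of 66. All 48 windows of Mir33 were its own. The windows that begin at the first base of the 3p strand were shared in Mir103-1 and Mir103-2, and unshared in Mir107. This search covers microRNA hairpins and not the whole genome.

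**Figure D1:**
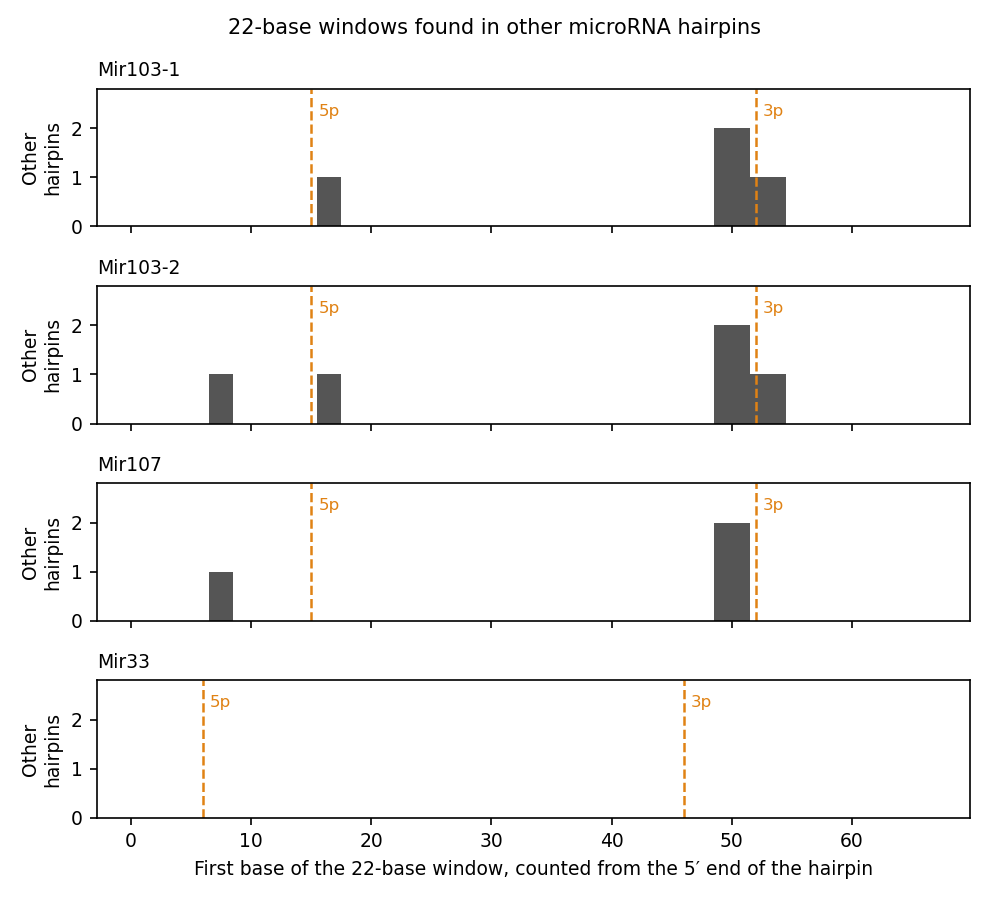
Number of other microRNA hairpins (vertical axis) that hold each 22-base window of a hairpin, by the first base of the window (horizontal axis, bases from the 5′ end). Dashed lines mark the first base of each mature strand. In Mir103-1 and Mir103-2, shared windows begin before, at and after the first base of the 3p strand, base 52. In Mir107 all shared windows begin before that base, and those nearest to it reach into the 3p strand. Mir33 has no shared window.

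By position on GRCm38 (GENCODE M21), Mir103-1 (ENSMUSG00000065553.1) lies on chromosome 11 from 35782396 to 35782481 on the plus strand, in intron 5 of 6 in Pank3. Mir103-2 (ENSMUSG00000065563.1) lies on chromosome 2 from 131288052 to 131288137 on the plus strand, in intron 5 of 6 in Pank2. Mir107 (ENSMUSG00000065594.1) lies on chromosome 19 from 34820687 to 34820773 on the minus strand, in intron 5 of 6 in Pank1. Introns are those of the protein-coding host transcript with the longest span. Each of the 3 genes thus sits in the intron before the last, on the strand of its host. The distance from the exon upstream was 688, 454 and 326 bases for Mir103-1, Mir103-2 and Mir107. Mir33 (ENSMUSG00000065465.1) lies on chromosome 15 from 82198122 to 82198190 on the plus strand, in intron 16 of 18 in Srebf2, 335 bases from the exon upstream. Gm25301 (ENSMUSG00000093026.1) spans chromosome 18 from 61397813 to 61397925 on the plus strand. Mir378a, on the minus strand from 61397835 to 61397900, lies wholly within it, with 66 of its 66 bases overlapped, and in intron 1 of 11 in Ppargc1b, 2389 bases from the exon upstream.

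Mir107 was the highest of the 5 genes and Mir103-1 the lowest. Levels are CPM, counts scaled to 1000000 own-strand counts on genes, and the intervals are exact (Clopper-Pearson) 95% binomial ones that cover counting error only. Mir107 had 12487 counts in pup 3 and 8203 in pup 1, or 3908 CPM (3840 to 3977) and 3510 CPM (3434 to 3587). Its mean was 3709 ± 281 CPM (SD, n = 2), the rank 56 of 1973 genes. The intervals of the pups did not overlap, pup 3 being higher. Counting intervals are narrow at such counts, and how many of all genes had intervals apart was not counted. By Fisher's exact test, 57.1% of the 287 tested genes differed between the pups at any fold (adjusted p under 0.05).

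Mir103-2, in Pank2, had 218 counts in pup 3 and 134 in pup 1, or 68.2 CPM (59.5 to 77.9) and 57.3 CPM (48.0 to 67.9). Its mean was 62.8 ± 7.70 CPM (SD, n = 2) at rank 247. Mir103-1 had 14 counts in pup 3 and 10 in pup 1, or 4.38 CPM (2.40 to 7.35) and 4.28 CPM (2.05 to 7.87), with a mean of 4.33 ± 0.0726 CPM (SD, n = 2) at rank 362. For both copies the intervals of the pups overlapped. The counts of Mir103-1 lie just at the minimum of 10 counts in each library that 360 genes of the tables reached, with a median of 227 CPM among them. Since these counts leave out reads that match both copies, they are not the level of miR-103.

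Mir33 had 480 counts in pup 3 and 335 in pup 1, or 150.2 CPM (137.1 to 164) and 143 CPM (128 to 160). Its mean was 147 ± 4.87 CPM (SD, n = 2) at rank 204, below the median of the detected genes, and the pups' intervals overlapped. None of the 4 Pank and Srebf2 hairpins had an opposite-strand count in either pup.

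Gm25301 had the reverse pattern of strands. It had 0 own-strand counts in either pup, a result that still permits 3 counts (0.939 CPM in pup 3, 1.28 CPM in pup 1). On the opposite strand, that of Mir378a and of its host Ppargc1b, it had 8773 counts in pup 3 and 6229 in pup 1, or 2746 CPM (2689 to 2804) and 2665 CPM (2600 to 2732). The mean was 2705 ± 56.8 CPM (SD, n = 2), a level that would hold rank 68. Mir378a has no row of its own in these tables, and counts per gene do not show the sequence of the reads. That they came from Mir378a was not tested.

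In falling order the levels were those of Mir107, Gm25301 (opposite strand), Mir33, Mir103-2 and Mir103-1, in both pups. No neighbours in this order overlapped between the pups. The closest were Mir107 and Gm25301, where the lower pup of Mir107 had 3510 CPM and the higher pup of Gm25301 2746 CPM, a ratio of 1.42 in pup 3 and 1.32 in pup 1. Gm25301 exceeded Mir33 18.3-fold in pup 3 and 18.6-fold in pup 1, and Mir33 exceeded Mir103-2 by 2.20-fold and 2.50-fold. Reads that match both miR-103 copies are left out of Mir103-2, while no 22-base window of Mir33 was shared. The folds of Mir33 over Mir103-2 thus compare assigned counts and not levels of the mature microRNAs. A mature read has much the same length whatever its hairpin, and the order was unchanged as mean CPM per 100 bases of annotated hairpin, at 4263 for Mir107, 2394 for Gm25301, 213 for Mir33, 73.0 for Mir103-2 and 5.04 for Mir103-1.

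**Figure D2:**
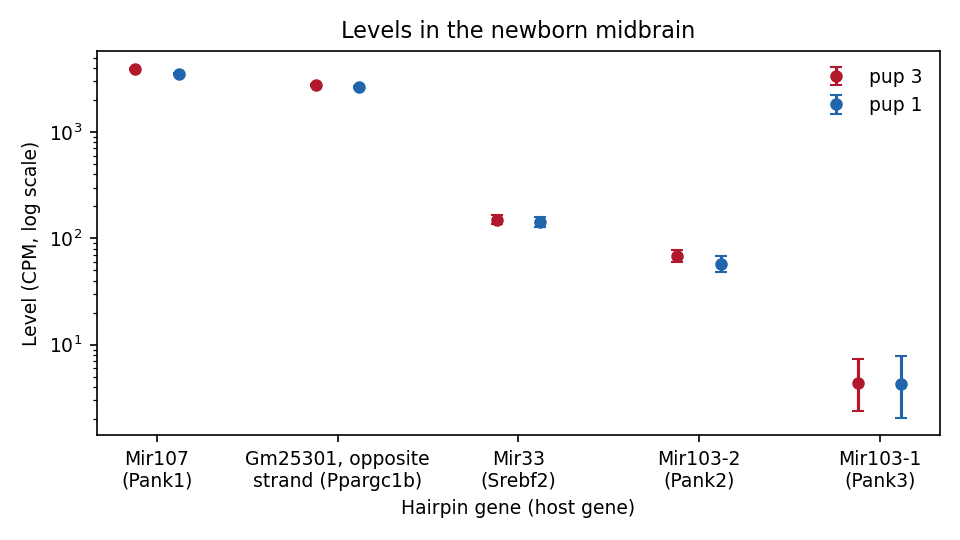
Level of each gene in CPM on a log axis, by pup, with exact 95% binomial intervals as error bars (smaller than the points at high levels); own-strand counts except for Gm25301, whose opposite-strand counts are drawn. Mir107 and the opposite strand of Gm25301 lie above 2665 CPM in both pups, Mir33 and Mir103-2 between 57.3 and 150.2 CPM, and Mir103-1 at 4.28 and 4.38 CPM.

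Nearly all reads assigned to the 3 Pank hairpins were on Mir107. Of 12719 such reads in pup 3 and 8347 in pup 1, Mir107 held 98.2% (97.9 to 98.4) and 98.3% (98.0 to 98.5). Mir103-2 held 1.71% (1.496 to 1.95) in pup 3 and 1.61% (1.35 to 1.90) in pup 1, and Mir103-1 0.110% (0.0602 to 0.185) and 0.120% (0.0575 to 0.220). Between the miR-103 copies, Mir103-2 outnumbered Mir103-1 by 15.6 to 1 in pup 3 (9.08 to 29.0) and 13.4 to 1 in pup 1 (7.06 to 28.6). None of the 3 shares passed a test of its difference between the libraries (Fisher's exact test, two-sided, adjusted p = 0.837 for each over the 3 shares). Unshared 22-base windows made up 87.7% of Mir103-1, 84.6% of Mir103-2 and 92.4% of Mir107, counted over the whole hairpin and not over the mature strands alone. The window that begins at the first base of the 3p strand was shared in both miR-103 copies and unshared in Mir107. The part of shared or mismatched reads in the split was not tested. Together the 3 genes held 3981 CPM in pup 3, against 3571.5 CPM in pup 1.

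The pups were then compared gene by gene. The log2 ratio of pup 3 over pup 1 was taken after TMM scaling, which evens out differences in composition, and a two-sided Fisher's exact test compared the counts of a gene with all other own-strand counts of each library. Calls needed a Benjamini-Hochberg adjusted p under 0.05 over all 287 tested genes and at least a 2-fold ratio. The test compares these 2 libraries and has no replicate check. It works on plain library totals, without TMM scaling. Each p-value therefore belongs to the plain-total ratio and not to the TMM ratio printed beside it. Of the 5 genes, 4 had the mean count of 50 needed for testing, Mir103-1 falling short with a mean of 12 counts. None of the 4 was called, against 5 of all 287 genes (1.74%). At any fold, 1 of the 4 had an unadjusted p under 0.05 in Fisher's exact test, as did at least 57.1% of all tested genes.

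Mir107 had a log2 ratio of 0.11, or 1.08-fold (counting interval 1.05 to 1.11), and was the only one of the 4 with an adjusted p under 0.05 in Fisher's exact test at any fold (1.48e-13). At this depth 164 of the 287 genes (57.1%) passed the same rule, so 1 of 4 is no more than the background. Mir103-2 had a log2 ratio of 0.20 (1.15-fold, 0.923 to 1.44; adjusted p = 0.175). Mir33 had 0.017 (1.01-fold, 0.879 to 1.17; adjusted p = 0.615) and Gm25301 -0.0071 on its opposite strand (0.995-fold, 0.963 to 1.03; adjusted p = 0.118). With plain totals, on which these p-values rest, the log2 ratios were 0.15 for Mir107, 0.25 for Mir103-2 and 0.067 for Mir33. That of Gm25301 turned its sign with plain totals, to 0.043. The median absolute log2 ratio over all 287 genes was 0.16. Only Mir103-2 lay above that median among the tested members, at place 110 from the largest difference, with Mir107 at 186, Mir33 at 266 and Gm25301 at 278. Mir103-1, read with the lower minimum of 10 mean counts, had a log2 ratio of -0.045 (0.014 with plain totals). Its counting interval of 0.406 to 2.47-fold does not exclude a difference of 2-fold in either direction.

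**Figure D3:**
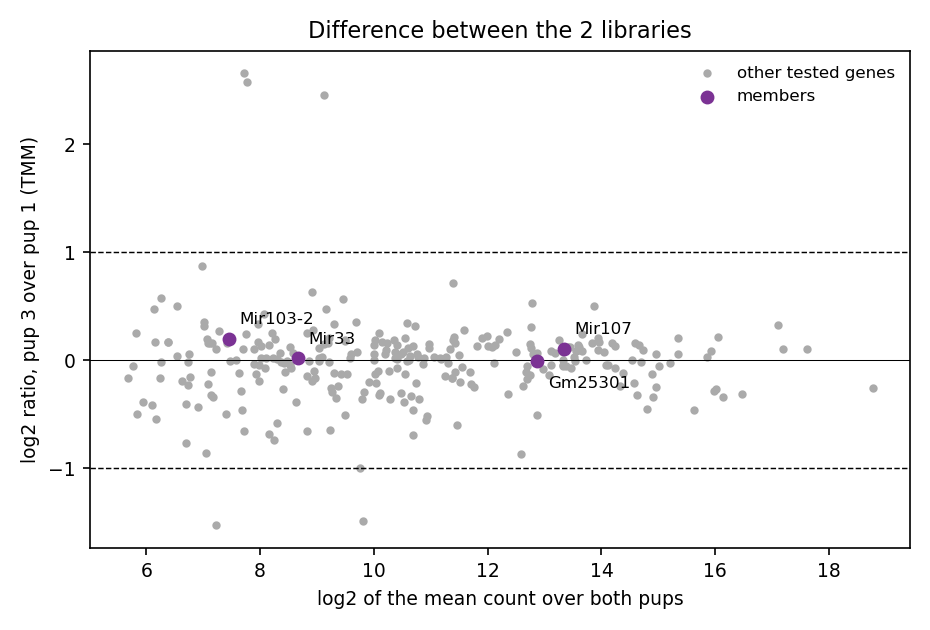
log2 ratio of pup 3 over pup 1 after TMM scaling (vertical axis) against the log2 mean count (horizontal axis) for the 287 tested genes, with the 4 tested members in purple. Dashed lines mark a 2-fold difference; the members lie between -0.0071 and 0.20, among the other genes.

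Genes with the most similar level in both pups were found by distance in log2(CPM + 1) over the 2 libraries, which measures level and not a shared pattern across conditions. Nearest to Mir107 were Mir93, of a cluster within the replication gene Mcm7, at 3853 CPM in pup 3, against 3533 CPM in pup 1, and Mir298 at 3771 and 3632 CPM. Nearest to the opposite strand of Gm25301 were Mir301 (2797 and 2756 CPM) and Mir872 (2802 and 2578 CPM). Mir33 stood nearest to Mir1264 (143 and 132 CPM) and Mir194-2, Mir103-2 nearest to Mir679 (65.7 and 56.9 CPM) and Mir30c-1, and Mir103-1 nearest to Mir1934 and Mir3058, with 4.07 CPM each in pup 3.

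The 3p strands of miR-103 and miR-107 belong to a wider group whose 5′ ends carry the hexamer AGCAGC, here called the AGCAGC group, which is known for targets in the cell cycle and metabolism. In miR-103 and miR-107 the hexamer begins at base 1, and in miR-15, miR-16, miR-195, miR-322, miR-497 and miR-503 at base 2, so their seeds are shifted by 1 base. The hexamer was found within bases 1 to 8 of 13 of the 1679 mature sequences. The gene list used for the group differs from these: it holds Mir497b, whose mature sequence lacks the hexamer there, and leaves out Mir6342, Mir6353 and Mir6419, which have it. The last 3, singled out with their values known, had 0 own-strand counts in both pups. Of the 13 listed genes, 12 had a row, 10 were detected and 9 tested. Mir322, the mouse counterpart of human miR-424, led with 7108 CPM in pup 3, against 6149 CPM in pup 1 (6629 ± 678, SD, n = 2). Mir107 came second. Mir15a, of the pair with Mir16-1 deleted in human leukaemia, followed with 3206 CPM in pup 3, against 3200 CPM in pup 1. Reads that match several hairpins are left out of these counts. The sequences of miR-16-5p and miR-103-3p each lie in 2 hairpins, and those of miR-107-3p and miR-322-5p in 1. The order is thus one of assigned counts and not of microRNA levels, which holds for the lists below as well.

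No listed gene of the group was called at 2-fold. At any fold, 4 of the 9 tested genes were higher in pup 3 by Fisher's exact test with adjustment over all genes, among them Mir107 and Mir322, against 33.8% of all tested genes, and 1, Mir195a, was lower, against 23.3%. Higher and lower follow the TMM ratio, here and for the lists below. Over all tested genes that gave 97 higher and 67 lower. By plain totals, which the test uses, 101 were higher and 63 lower. The list had a median log2 ratio of 0.11, which is the ratio of Mir107 itself, beside 0.013 over all 287 genes. Since Mir103-1, Mir103-2 and Mir107 are on this list and Mir107 is among the 4, it is no separate evidence.

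**Figure D4:**
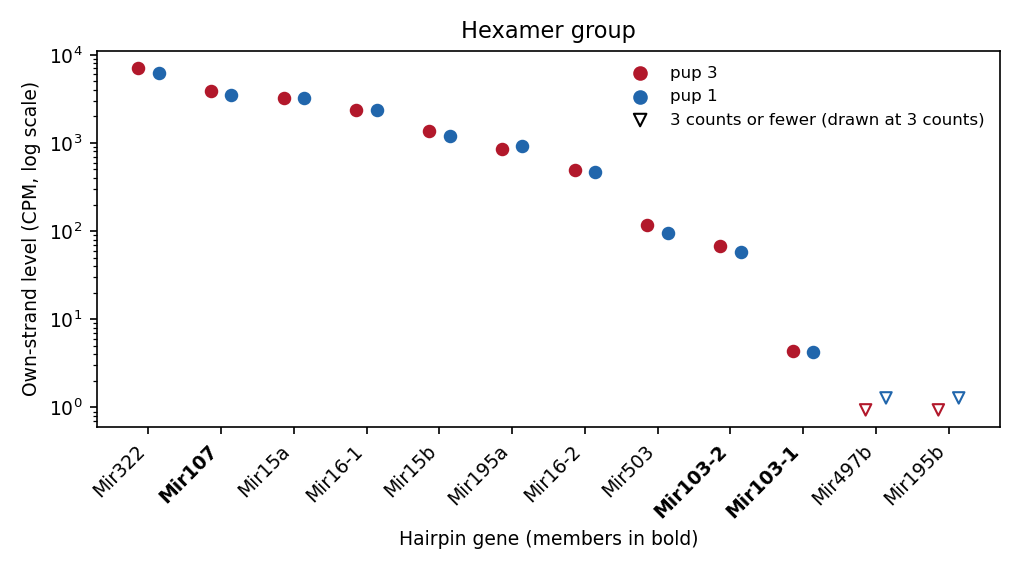
Own-strand level in CPM, on a log axis, of the 12 genes listed for the AGCAGC group with a row in the tables, by pup; names of Pank hairpins are in bold, and open triangles mark 3 counts or fewer. By assigned counts Mir107 stands second after Mir322, while Mir103-2 and Mir103-1 lie lower, below Mir503.

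Of the miR-378 hairpins with a row of their own, Mir378d had 14 counts in pup 3 and 17 in pup 1, Mir378c 6 and 1, and Mir378b 1 in each. The opposite strand of Gm25301, which the tables assign to no microRNA of that family, had 8773 counts in pup 3 and 6229 in pup 1. Reads that match several hairpins are left out of each of these counts, so they are not the levels of the miR-378 strands.

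Among 17 listed genes known for roles in cholesterol and lipid metabolism, 16 had a row and all 16 were detected and tested. Mir128-1, which represses the cholesterol exporter Abca1 and is abundant in neurons, led at 7512 CPM in pup 3, against 7885 CPM in pup 1. The opposite strand of Gm25301 was next, followed by Mir128-2 at 2420 and 2576 CPM. Mir33 was ninth of the 16 by mean level. None was called at 2-fold. At any fold, 3 were higher in pup 3 and 3 lower by Fisher's exact test with adjusted p, against 33.8% of all tested genes higher and 23.3% lower. The list's median log2 ratio was -0.0094, beside 0.013 over all 287 genes.

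Among 12 listed genes tied to insulin and glucose, 11 were detected and 7 tested. Mir143, a microRNA of smooth muscle that impairs insulin signalling in mouse liver when raised, led at 6947 CPM in pup 3, against 7032 CPM in pup 1. Mir107 came next, followed by Mir29a at 677 CPM in pup 3, against 524 CPM in pup 1. None was called at 2-fold. At any fold, 4 of 7 were higher in pup 3 by Fisher's exact test and 0 lower, against 33.8% of all tested genes higher and 23.3% lower. The list's median log2 ratio was 0.18, beside 0.013 over all 287 genes. Mir103-1, Mir103-2 and Mir107 are members of this list and Mir107 is among the 4, so it is no separate evidence.

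As a check of the tissue, 9 listed neuron microRNAs summed to 48823 CPM in pup 3, against 43806 CPM in pup 1, led by Mir137, Mir153 and Mir128-1, with Mir137 at 26512 and 22082 CPM. The sum follows its highest genes. Of 6 tested neuron genes, 2 were higher in pup 3 and 2 lower by Fisher's exact test with adjusted p at any fold. Of all tested genes, 33.8% were higher and 23.3% lower. None of the 6 was called, and their median log2 ratio was -0.064, beside 0.013 over all 287 genes. The 3 Mir124a hairpins, defining for neurons, had at most 11.6 CPM. They are copies with a shared mature strand, and reads that match several copies are not counted, so these values are not the level of miR-124. Among markers of liver and muscle, tissues in which miR-33 and miR-378a are best known, Mir122 of hepatocytes had 47.9 CPM in pup 3, against 58.6 CPM in pup 1. The striated muscle list summed to 50.7 CPM in pup 3, against 42.4 CPM in pup 1, led by Mir206, Mir208b and Mir499, and of its 7 genes with a row Mir1a-1, Mir133a-1 and Mir133a-2 were at 0. These 3 also have copies that share a mature strand, so a count of 0 does not show that miR-1a or miR-133a was absent, and the sum leaves such reads out. The red cell list summed to 74.2 CPM in pup 3, against 124.5 CPM in pup 1, over Mir451a, Mir144 and Mir486. Mir451a had 31.0 CPM in pup 3, against 86.4 CPM in pup 1, and Mir486 14.1 against 18.0 CPM. Mir144 went the other way, at 29.1 against 20.1 CPM. Of the 2 tested red cell genes 1 was called, Mir451a (log2 ratio -1.53), beside 1.74% of all 287 tested genes.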

How the data were processed

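Per the descriptions deposited with the files, the authors used assembly mm10 and annotation GENCODE M4. The names of the aligner and counter were not given in the sources used here. The deposited tables hold unnormalized counts by gene in 3 columns (either, own and opposite strand), as their whole numbers and shared totals show. Own-strand totals over genes were 3195277 in pup 3 and 2337113 in pup 1. The 4 rows naming no gene held 56.7% and 57.2% of reads and stayed out of totals and tests. Symbols came from GENCODE M21 (GRCm38, equivalent to mm10), and 1894 of 1973 identifiers matched.

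CPM used own-strand totals. Column 3 was used for all genes except Gm25301, counted from column 4. With 1 library per pup no model of replicate spread could be fitted, so Fisher's exact test (SciPy 1.17.1) on plain totals was used. Its p-values had Benjamini-Hochberg adjustment across all genes with a mean count of 50. TMM scaling (edgeR 4.0.16) and a prior count of 0.5 entered the ratios and not the test. The calculation was tested on simulated data. P-values measure only the spread of counting between these samples. Genes named are the members, the 2 nearest in level to each, and up to 3 leading genes of each list; others are marked. Members and lists were chosen with earlier results of these data known. Sequence copies were sought among RefSeq microRNA hairpins, since no genome sequence was used here.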

Additional observations from a re-analysis of the deposited data

Results flagged for a closer look

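Mir497b, which is on the gene list of the AGCAGC group although its mature sequence lacks the hexamer, carried a signal in a column that the levels above do not use for it. Its opposite-strand counts came to 2368 in pup 3 and 1686 in pup 1, or a mean of 731 CPM, beside 0 and 1 own-strand counts. The own-strand count of 0 in pup 3 permits 0.939 CPM. Like Gm25301, it has nearly all of its reads opposite the annotated gene. Where these reads came from was not tested.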

How the results depend on the processing

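Levels moved by more than 1 SD with the total used. Over all reads of the files, Mir107 had 1597, Gm25301 1164, Mir33 63.2, Mir103-2 27.0 and Mir103-1 1.86 counts per 1000000 reads. Without Mir99a in the total they had 4428, 3232, 175, 74.9 and 5.17 CPM. With the either-strand total Gm25301 had 2616, Mir33 142 and Mir103-1 4.19 CPM, and the other 2 stayed within 1 SD. This SD is that of 2 pups. For Mir103-1 it was 0.0726 CPM, far narrower than its counting intervals of 2.40 to 7.35 CPM in pup 3 and 2.05 to 7.87 CPM in pup 1. With plain totals in place of TMM, the log2 ratio of Gm25301 changed sign to 0.043 and that of Mir103-1 to 0.014. Those of the other 3 genes kept their sign in each alternative run, and none of the 5 was called at 2-fold. Genes called were 11 with a mean count of 10, 10 with any count, 19 at 1.5-fold and 164 at any fold, in place of 5. Members called were 1 at any fold. By windows of 18 bases in place of 22, 68.1% of Mir103-2 was unshared, in place of 84.6%. The search of a whole genome was not run. Mir103-1, with 14 and 10 counts, is limited by depth.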
